A study of Mus musculus with 6 samples.

Results

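Adrenomedullin is a vasodilator peptide of the vessel wall, and it was followed here through 5 genes: its precursor gene Adm, the receptor gene Calcrl, and the receptor activity-modifying protein (RAMP) genes Ramp1, Ramp2 and Ramp3. The genes were taken by symbol from a table of 35275 genes, and all 5 were found there and passed the filter on low values, a mean over the libraries of 1 FPKM or more, as 12165 genes did. FPKM counts sequenced fragments per kilobase of gene, scaled to all fragments of the library that fall in genes, so it can be compared between genes. The ligand was selected on its FPKM values in the EC-Jag1KO libraries against the wild-type libraries, and the others were added as its receptor partners with their values known. The genotype differences of the 5 genes are therefore given as a description and with no p-value.

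RNA from whole aorta of mice was sequenced in 6 libraries, 3 labelled wild-type and 3 labelled EC-Jag1KO, a genotype in which the Notch ligand Jagged1 is lost from endothelial cells. The series addresses what this loss does to the vessel wall. The sources used here do not give the Cre driver, the age of the animals or the number of animals behind each library, so p-values measure only the spread between these libraries, part of which may be technical. Because the tissue is whole aorta, fewer cells of a type and less RNA per cell cannot be told apart.

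Adrenomedullin is cut from a larger precursor, amidated at its end and released mainly by endothelial and smooth muscle cells. It acts through the calcitonin receptor-like receptor, encoded by Calcrl, a receptor that reaches the cell surface only together with a RAMP. The RAMP sets the ligand that the receptor prefers: with RAMP1 it is a receptor for the sensory nerve peptide CGRP, and with RAMP2 or RAMP3 it is a receptor for adrenomedullin. In endothelium and smooth muscle these receptors couple to the stimulatory G protein and raise cAMP, and mice without Adm, Calcrl or Ramp2 die before birth with vascular and lymphatic defects. Adm is also a well known target of hypoxia-inducible factors.

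The 250 bases before the RefSeq start site of Adm and of Ramp3 are shown because these are the members whose libraries did not overlap between the genotypes, and those of Ramp1 because it held the same motif as Adm. Capitals mark matches to TGGGAA or its reverse complement TTCCCA, the core bound by the Notch effector RBPJ. All are written 5′ to 3′ on the strand of the gene in build GRCm38.p6.
Adm (chr7:110627407-110627656, plus strand): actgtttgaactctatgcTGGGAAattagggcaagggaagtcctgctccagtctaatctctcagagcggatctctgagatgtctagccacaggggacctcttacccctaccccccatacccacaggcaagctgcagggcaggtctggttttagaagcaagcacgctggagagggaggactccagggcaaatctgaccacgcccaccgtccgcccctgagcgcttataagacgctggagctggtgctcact
Ramp1 (chr1:91179572-91179821, plus strand): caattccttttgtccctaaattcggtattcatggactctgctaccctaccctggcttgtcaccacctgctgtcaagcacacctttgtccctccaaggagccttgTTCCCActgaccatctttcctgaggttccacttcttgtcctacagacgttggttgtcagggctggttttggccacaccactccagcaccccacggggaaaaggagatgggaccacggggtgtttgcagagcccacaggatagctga
Ramp3 (chr11:6658283-6658532, plus strand): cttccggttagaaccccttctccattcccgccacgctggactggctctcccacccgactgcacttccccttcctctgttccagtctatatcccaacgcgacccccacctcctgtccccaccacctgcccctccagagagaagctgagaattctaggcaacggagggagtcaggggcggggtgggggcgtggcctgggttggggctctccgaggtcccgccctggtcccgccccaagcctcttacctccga
The Adm window held the motif once, at positions -232 to -227 from the start site, and the Ramp1 window held it once on the reverse strand, at -146 to -141. The windows of Ramp3 and Calcrl held no match. Of 32851 RefSeq promoter windows of this length, 21.6% held TGGGAA on either strand. ACGTG, a form of the hypoxia response element core, was in 16.6% of all windows and TGACGTCA, the cAMP response element, in 1.55%. Neither was in the 4 windows of members searched. The other form of the hypoxia core, GCGTG, was not searched. It can be read in the Ramp3 window shown, and its reverse complement CACGC in the Adm window, so absence of ACGTG is not absence of the core. The motifs do not overlap each other in these windows, and a match is a string of letters and not a shown binding site.

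Adm (ENSMUSG00000030790) lies at chr7:110627661-110629820 on the plus strand in mm10 and has up to 4 exons per transcript in GENCODE M21. Calcrl (ENSMUSG00000059588) lies at chr2:84330626-84425411 on the minus strand, with up to 16 exons. Ramp1 (ENSMUSG00000034353) lies at chr1:91179822-91225196, Ramp2 (ENSMUSG00000001240) at chr11:101246028-101259546 and Ramp3 (ENSMUSG00000041046) at chr11:6658521-6677475, all on the plus strand. Since the strand setting of the counting is not given, overlapping genes matter here. An antisense gene over Adm held 0 to 10 reads per library and a pseudogene over Ramp3 held 0 to 6. Vps25, a sorting complex gene inside the annotated span of Ramp2 on the same strand, held only 2 to 12 reads, so reads of the 2 genes may have been shared or dropped and the level of Ramp2 is uncertain to that extent.

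The libraries held 19889910 to 25914325 reads in genes. Jag1, the targeted gene, ranged over 9.86 to 16.9 FPKM in the wild-type group and over 9.42 to 19.6 FPKM in the EC-Jag1KO group, which overlap, and a level over whole tissue does not check a deletion in the endothelium. Xist and Y-linked genes put 2 male and 1 female library, replicate 3, in each genotype. All 12 endothelial and all 10 smooth muscle marker genes were detected in these aortas. Summed over the endothelial genes, the level was 347 to 516 FPKM against 389 to 483 FPKM (wild-type against EC-Jag1KO). Adipocyte genes summed to 424 to 2433 FPKM against 928 to 2229 FPKM. The 2 globin genes summed to 636 to 1330 FPKM against 167 to 814 FPKM. Smooth muscle genes summed to 14354 to 15050 FPKM against 12067 to 14181 FPKM, with no overlap. Of these 10 genes, 1 was higher and 3 lower at an unadjusted p under 0.05 in limma (40% against 7.71% of all genes tested). Without overlap, 1 was higher and 5 lower, where 6.84% and 6.73% of all genes tested were. Both globin genes were lower at that unadjusted p, with log2 differences of -1.42 and -1.39. In both lists 0 genes passed an adjusted p of 0.05. The part of these cell types in the results on the 5 genes was not tested.

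The 5 genes formed 3 tiers of level in the aorta. Ramp1 and Ramp2 were the most abundant, with means over the 6 libraries of 57.1 and 58.5 FPKM, above 91.4% and 91.6% of the genes tested. Adm and Calcrl lay in the middle, at means of 20.6 and 12.6 FPKM. Ramp3 was the lowest at 1.34 FPKM, above only 4.33% of the genes tested. It passed the filter through the wild-type libraries alone, since its EC-Jag1KO mean was 0.371 FPKM. The order is given as a description, from the log2(FPKM + 1) of each member minus that of each other member within a library. In 8 of 10 pairs the same gene was higher in all 6 libraries, and 4 of these pairs hold Ramp3. Adm was above Calcrl in 5 of 6 libraries, by 0.64 ± 0.70 on the log2 scale (SD, n = 6), a difference smaller than its spread. That spread takes in both genotypes: the difference was 0.22 ± 0.32 in wild-type and 1.06 ± 0.77 in EC-Jag1KO libraries (SD, n = 3 each). Over all 6 libraries Ramp1 and Ramp2 did not differ beyond their spread. Ramp1 was higher in 3 of 6, with a mean log2 difference of -0.05 ± 0.25 (SD, n = 6). This spread also pools the genotypes. Ramp1 was higher in 3 of 3 wild-type libraries, by 0.15 ± 0.11, and in 0 of 3 EC-Jag1KO libraries, at -0.25 ± 0.16 (SD, n = 3 each). The tie over all 6 libraries depends on the gene length used as well. A setting chosen after seeing the data was the level per kilobase of the longest coding sequence. There Ramp1 was above Ramp2 in 6 of 6 libraries, by 0.95 ± 0.25 on the log2 scale.

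Adm, the ligand gene, was higher in every EC-Jag1KO library than in every wild-type library. Its levels were 11.2, 11.7 and 17.4 FPKM among wild-type and 26.9, 30.5 and 26.1 FPKM among EC-Jag1KO libraries. These levels rest on 369 to 622 reads in wild-type and 819 to 939 reads in EC-Jag1KO libraries. The means were 13.4 ± 3.4 and 27.8 ± 2.3 FPKM (SD, n = 3 each), a ratio of 2.07, and the difference in log2(FPKM + 1) was 1.02 with a 95% interval of 0.63 to 1.41. Of the 12165 genes tested, 51 had a larger positive difference. Adm was selected on this contrast, so nothing is read from that place. Among the male libraries the difference was 1.25, and between the female libraries, 1 of each genotype, it was 0.56. The female wild-type library had the highest Adm of its genotype and the female EC-Jag1KO library the lowest of its own.

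**Figure D1:**
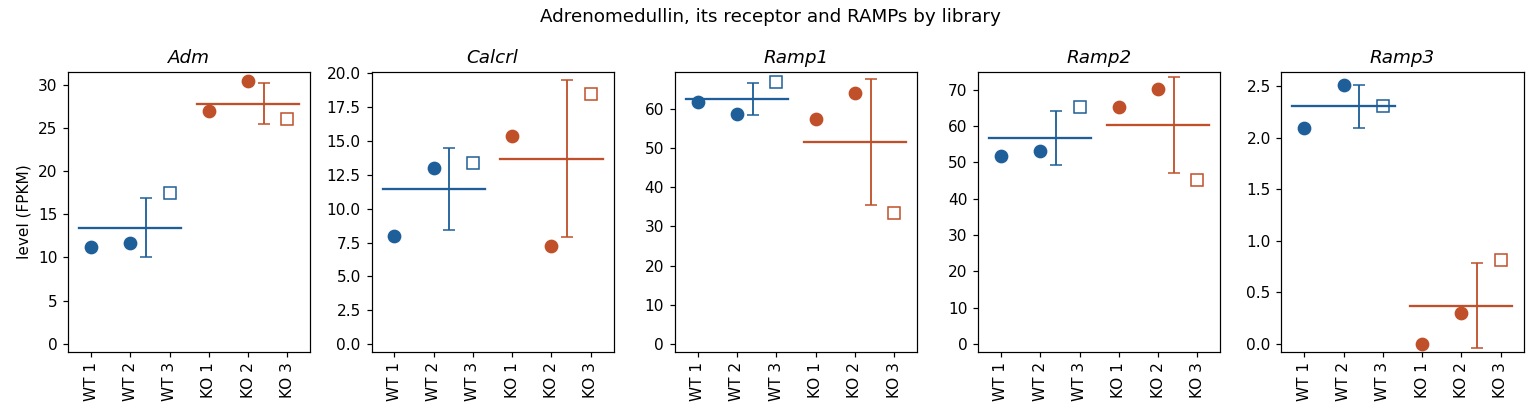
Level in FPKM (vertical axis, linear from 0) of each gene in the 6 libraries (horizontal axis; WT wild-type, KO EC-Jag1KO, numbered by replicate). Filled circles are male and open squares female libraries, lines are group means and bars are 1 SD (n = 3). Adm and Ramp3 separate the genotypes in opposite directions, while Calcrl, Ramp1 and Ramp2 overlap.

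Calcrl, the receptor gene, varied more within the genotypes than between them. Its levels were 7.97, 13.0 and 13.4 FPKM among wild-type and 15.4, 7.23 and 18.4 FPKM among EC-Jag1KO libraries, and rested on 702 to 2334 reads. The lowest and the highest of all 6 values were both in EC-Jag1KO libraries, and the wild-type range lay inside the EC-Jag1KO range. The log2 difference was 0.18, with a 95% interval from -0.61 to 0.96. It lay between -0.07 and 0.55 with each library left out in turn, being highest without EC-Jag1KO replicate 2.

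Of the RAMP genes, Ramp1, whose product makes the CGRP receptor, overlapped between the genotypes. It had 61.9, 58.8 and 67.0 FPKM among wild-type and 57.5, 64.03 and 33.4 FPKM among EC-Jag1KO libraries. The female EC-Jag1KO library was far below the other 5, and it set most of the log2 difference of -0.32 (95% interval -0.86 to 0.22), which was -0.04 without it. Ramp2, whose product makes the main vascular adrenomedullin receptor, had 51.7, 53.2 and 65.2 FPKM among wild-type and 65.4, 70.2 and 45.2 FPKM among EC-Jag1KO libraries. The same female library was the lowest for Ramp2, where the male EC-Jag1KO libraries were above the male wild-type ones. Such opposite directions in the libraries of the 2 sexes were found in 22.6% of all genes tested, and an interaction of genotype and sex passed an adjusted p of 0.05 in limma in 0.0329%. The log2 difference of Ramp2 was 0.07, with a 95% interval from -0.36 to 0.50, and 0.26 without that library.

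Ramp3, whose product makes the second adrenomedullin receptor and alters receptor recycling, was the member with the largest difference, in the direction opposite to Adm. It had 2.10, 2.51 and 2.31 FPKM among wild-type and 0, 0.302 and 0.811 FPKM among EC-Jag1KO libraries. Every EC-Jag1KO library was below every wild-type library. The reads behind these levels were few, at 66, 84 and 79 in wild-type and 0, 8 and 28 in EC-Jag1KO libraries. A count of 0 allows up to 3 reads, or 0.103 FPKM, in EC-Jag1KO replicate 1, and this limit covers counting error only. The means were 2.30 ± 0.21 and 0.371 ± 0.410 FPKM (SD, n = 3 each), and the log2(FPKM + 1) difference was -1.31, with a 95% interval from -1.85 to -0.77. A pseudocount of 1 is large beside these levels, so the size is not fixed: with 0.1 the difference was -2.85. Of the genes tested, 10 had a more negative difference at a pseudocount of 1. Ramp3 passed the filter through the wild-type libraries and was chosen with this contrast known, so nothing is read from that place. The log2 difference was -1.53 among male libraries and -0.87 between the female libraries.

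Among the members, 2 of 5, Adm and Ramp3, had groups that do not overlap, where 13.6% of all genes tested did (6.84% higher and 6.73% lower in EC-Jag1KO). The contrast was known when the members were chosen, so nothing is read from that count. In limma's moderated test across all genes, 0 of 12165 genes (0%) passed a Benjamini-Hochberg adjusted p of 0.05, and 938 genes (7.71%) had an unadjusted p under 0.05. The adjusted count was 0 with voom on recovered reads and 1647 with array weights, which did not fully converge. It was 4 without EC-Jag1KO replicate 1, 2 in the male libraries alone and 1 with sex as a covariate.

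The make-up of the RAMP level did not overlap between the genotypes. The genes were chosen with this contrast known, so nothing is read from that separation. Of all genes tested, 13.6% had groups that do not overlap, and no such figure was computed for shares. Ramp1 and Ramp2 make up nearly the whole sum, so their shares mirror each other and are not separate observations. Ramp1 made up 53.5, 51.3 and 49.8% of the summed FPKM of the 3 RAMP genes in wild-type and 46.8, 47.6 and 42.1% in EC-Jag1KO libraries. Ramp2 made up 44.7, 46.5 and 48.5% in wild-type and 53.2, 52.2 and 56.9% in EC-Jag1KO libraries. Ramp1 was therefore the larger of the pair in all 3 wild-type libraries and Ramp2 in all 3 EC-Jag1KO libraries, although neither gene separated the genotypes alone. The crossing depends on the gene lengths, since Ramp1 was the larger in all 6 libraries per kilobase of coding sequence. Ramp3 made up 1.81, 2.19 and 1.71% in wild-type and 0, 0.224 and 1.02% in EC-Jag1KO libraries. The summed RAMP level overlapped, at 121.6 ± 11.2 against 112 ± 29 FPKM (SD, n = 3 each).

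**Figure D2:**
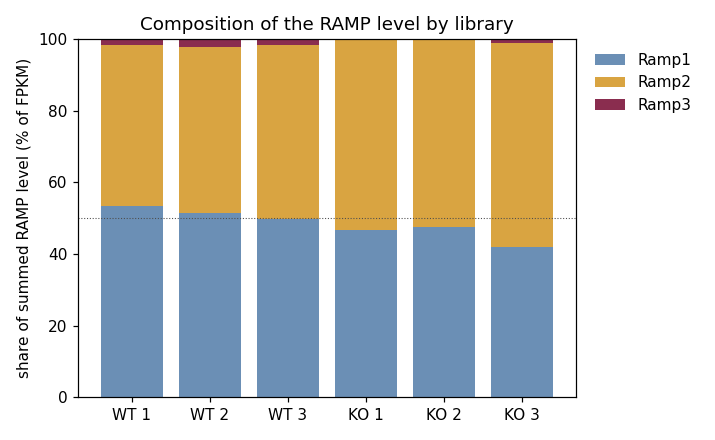
Share of the summed FPKM of Ramp1, Ramp2 and Ramp3 (vertical axis, percent) taken by each gene in each library (horizontal axis; WT wild-type, KO EC-Jag1KO, numbered by replicate). The dotted line marks 50%; the Ramp1 share runs from 49.8 to 53.5% in wild-type and from 42.1 to 47.6% in EC-Jag1KO libraries.

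Set against its receptor partners, the ligand was higher in EC-Jag1KO aorta relative to each of the 4. The log2 ratio of Adm to Ramp2 was -2.02 ± 0.15 in wild-type and -1.07 ± 0.26 in EC-Jag1KO libraries (SD, n = 3 each), a difference of 0.95 with a 95% interval of 0.47 to 1.43 on 4 degrees of freedom. The Adm to Ramp2 ratio of FPKM was 0.217, 0.219 and 0.267 in wild-type and 0.412, 0.434 and 0.576 in EC-Jag1KO libraries. The log2 ratio to Ramp1 differed by 1.34 (95% interval 0.57 to 2.11) and that to Ramp3 by 2.33 (1.41 to 3.25). The size of the last is not fixed, with 0 reads of Ramp3 in 1 library: it was 3.92 with a pseudocount of 0.1 and 4.81 with voom on recovered reads. These 3 ratios did not overlap between the genotypes, and that to Calcrl, given below, narrowly did not. The ligand was selected on this contrast and the partners were added with their values known. Nothing is therefore read from the separation or the intervals, and no share over other pairs of genes was computed.

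The ratio of Adm to Calcrl was the least separated of the 4. It was 1.41, 0.898 and 1.302 in wild-type and 1.75, 4.21 and 1.41 in EC-Jag1KO libraries, so the highest wild-type and the lowest EC-Jag1KO library coincide to 3 digits. EC-Jag1KO replicate 2, where Calcrl was low and Adm high, stood apart at 4.21. The log2 difference of 0.84 had a 95% interval from -0.50 to 2.18 and was 0.40 without that library. All 4 ratios share the Adm values, so they are not separate evidence of its level.

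**Figure D3:**
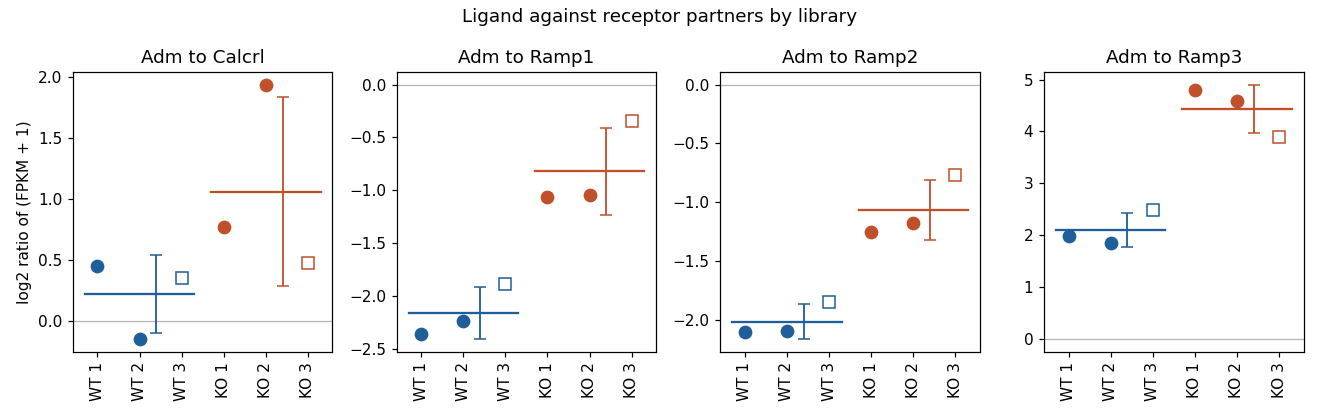
Log2 ratio of Adm to each receptor partner, as log2(FPKM + 1) of Adm minus that of the partner (vertical axes, different ranges), in the 6 libraries (horizontal axis; WT wild-type, KO EC-Jag1KO). Filled circles are male and open squares female libraries, lines are group means and bars 1 SD (n = 3); the ratios to Ramp1, Ramp2 and Ramp3 separate the genotypes clearly, and that to Calcrl narrowly.

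Calcrl and Ramp2 are strongly expressed by endothelium, so the levels were also set against 12 endothelial genes. The mean log2(FPKM + 1) of these genes was 4.12 ± 0.37 in wild-type and 4.24 ± 0.15 in EC-Jag1KO libraries (SD, n = 3 each). Relative to that mean, Adm lay at -0.35, -0.19 and -0.33 in wild-type and at 0.40, 0.87 and 0.55 in EC-Jag1KO libraries on the log2 scale. The genotypes did not overlap for Adm on this scale. Ramp3 lay at -2.33, -2.04 and -2.81 in wild-type and at -4.41, -3.72 and -3.35 in EC-Jag1KO libraries, again with no overlap. Calcrl, Ramp1 and Ramp2 overlapped on this scale as well, with differences of 0.06, -0.44 and -0.05. Relative to 10 smooth muscle genes, the Adm difference was 1.13 and the Ramp3 difference -1.20.

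**Figure D4:**
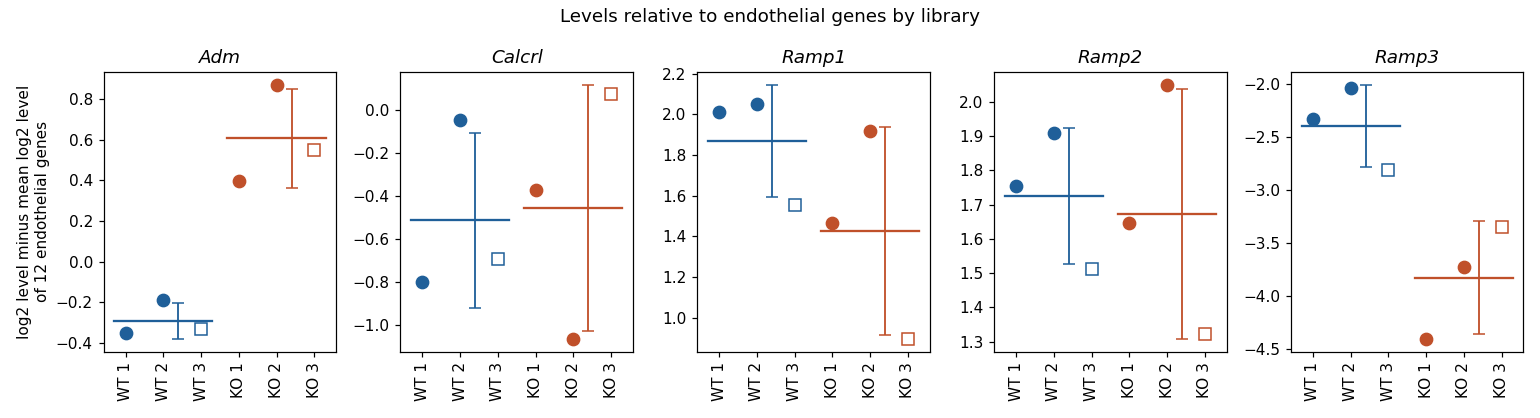
Log2(FPKM + 1) of each gene minus the mean log2(FPKM + 1) of 12 endothelial marker genes in the same library (vertical axes, different ranges), by library (horizontal axis; WT wild-type, KO EC-Jag1KO). Filled circles are male and open squares female libraries, lines are group means and bars 1 SD (n = 3); Adm and Ramp3 stay separated between the genotypes and the other genes overlap.

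Transcripts of the other peptides and receptors of the calcitonin family were close to absent from the aorta. These are RNA levels in the tissue, and the peptides themselves were not measured. Calcb, the second CGRP gene, Iapp, the amylin gene, and Calcr, the calcitonin receptor gene, had 0 reads in all 6 libraries, which allows up to 3 reads in each. Adm2, which encodes intermedin, had 3 reads in EC-Jag1KO replicate 2 and 0 in the others. Calca, the calcitonin and first CGRP gene, had 0 to 6 reads. Gpr182, an endothelial receptor once proposed to bind adrenomedullin, stood at 0.498 to 1.18 FPKM and missed the filter. Adm was the one ligand gene of the family with more than 6 reads in a library.

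Genes that make and clear the peptide were present at very different levels. Pam, the enzyme that amidates adrenomedullin, was the most abundant, at 527 ± 67 FPKM among wild-type and 499 ± 87 FPKM among EC-Jag1KO libraries (SD, n = 3 each). Ackr3, an atypical chemokine receptor that takes up adrenomedullin, had 18.8, 20.1 and 25.3 FPKM among wild-type and 24.6, 24.5 and 26.9 FPKM among EC-Jag1KO libraries, and these overlap. Crcp, the CGRP receptor component gene, stood at 9.76 ± 0.61 against 9.22 ± 1.5 FPKM. Among the proprotein convertases, Furin, Pcsk6 and Pcsk7 had log2 differences of -0.04, 0.33 and -0.01.

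Of the 9 tested genes of this group, 0 passed the adjusted threshold, and 1 higher and 1 lower had an unadjusted p under 0.05, where 4.25% of all genes tested were higher and 3.46% lower at that level. Mme, the peptidase neprilysin that degrades vasoactive peptides, was at 2.70, 0.779 and 2.76 FPKM among wild-type and 4.59, 3.53 and 4.30 FPKM among EC-Jag1KO libraries (limma unadjusted p = 0.0258, adjusted p = 0.585). Pcsk5, a proprotein convertase, was at 9.40, 12.5 and 11.8 FPKM among wild-type and 6.89, 6.97 and 8.67 FPKM among EC-Jag1KO libraries (limma unadjusted p = 0.00633, adjusted p = 0.428). Neither gene overlapped between the genotypes, where 6.84% of all genes tested were higher and 6.73% lower without overlap. The median log2 difference of the group was -0.0076, against -0.00022 over all genes tested.

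Downstream of the receptor, the genes of cAMP signalling lay on both sides of 0. Of 27 tested, 0 passed the adjusted threshold in limma, 1 was higher and 4 lower at an unadjusted p under 0.05, and the median log2 difference was 0.02. These 5 genes are 18.5% of the group, where 7.71% of all genes tested had such a p. Adcy5, the adenylyl cyclase of highest level here, had 253, 272 and 221 FPKM among wild-type and 183, 207 and 206 FPKM among EC-Jag1KO libraries, a log2 difference of -0.32. Adcy6, a second cyclase, had 44.7, 47.3 and 52.9 FPKM among wild-type and 37.0, 42.5 and 37.9 FPKM among EC-Jag1KO libraries, a log2 difference of -0.30. Both cyclases were lower in every EC-Jag1KO library than in every wild-type library. In the list, 4 genes were lower without overlap and 3 were higher without overlap, these being Pde8a, Creb1 and Rapgef3. Over all genes tested, 6.73% were lower and 6.84% higher without overlap.

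The remaining lower genes, the cyclase Adcy7 and the protein kinase A regulatory subunit Prkar2a, were named after their values were seen and had log2 differences of -0.26 and -0.24. The higher gene at an unadjusted p under 0.05 in limma was Pde8a, a phosphodiesterase that degrades cAMP. It stood at 4.92 ± 0.77 against 7.03 ± 1.08 FPKM (SD, n = 3 each). Of the abundant genes, the protein kinase A catalytic subunit Prkaca had a log2 difference of 0.01, its regulatory subunit Prkar1a -0.11, the small GTPase Rap1b 0.07 and the kinase substrate Vasp -0.33. The count of genes at an unadjusted p under 0.05 over all 5 groups of pathway genes was 9 of 76 and ran from 3 to 16 with each library left out in turn. Leaving out wild-type replicate 1, 2 or 3 gave 5, 3 and 15 such genes, and leaving out EC-Jag1KO replicate 1 or 2 gave 3 and 16.

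Genes of receptor desensitization and trafficking gave no such p. Of 13 tested, 0 had an unadjusted p under 0.05 and 0 an adjusted one in limma, 2 lay higher and 11 lower, and the median log2 difference was -0.08. Arrb1, a beta-arrestin that uncouples and internalizes receptors, stood at 15.8 ± 1.1 against 14.3 ± 1.1 FPKM (SD, n = 3 each). The receptor kinase gene Grk6 had a log2 difference of -0.21, and Slc9a3r2, a scaffold of the same family as the one that binds human RAMP3, had -0.42. For both genes the male libraries overlapped between the genotypes. The female libraries, replicate 3 of each genotype, had 26.3 FPKM against 17.4 FPKM in EC-Jag1KO for Grk6. For Slc9a3r2 they had 63.6 FPKM against 23.5 FPKM in EC-Jag1KO. Rab7, a late endosome GTPase, was the one gene above 50 FPKM, with a log2 difference of 0.04.

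Hypoxia-inducible factor targets and sensors were set beside Adm because Adm is a target of these factors. Of 24 tested, 0 passed the adjusted threshold in limma, 2 were higher and 0 lower at an unadjusted p under 0.05 (8.33% of the group against 7.71% of all genes tested), and the median log2 difference was 0.04. In this list 13 genes lay higher and 11 lower. The genotypes did not overlap for 1 higher gene, Egln3, and for 1 lower gene. Over all genes tested, 6.84% were higher and 6.73% lower without overlap. Egln3, the inducible prolyl hydroxylase that marks these factors for destruction, had 2.67, 1.93 and 3.61 FPKM among wild-type and 4.70, 5.29 and 4.83 FPKM among EC-Jag1KO libraries. Pdk1, the kinase that restrains pyruvate oxidation, had 4.33, 3.44 and 5.04 FPKM against 8.66, 4.71 and 7.81 FPKM, which overlap. Bnip3, a mitophagy gene, stood at 33.1 ± 8.6 against 42.6 ± 2.5 FPKM (SD, n = 3 each). The glycolytic genes Aldoa, Ldha and Pgk1 had log2 differences of 0.30, 0.31 and 0.11, and Epas1, the endothelial factor itself, -0.15.

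Of 15 other vasoactive genes in the table, 3 passed the filter and 0 of these had an unadjusted p under 0.05 in limma. Edn1, which encodes the constrictor endothelin-1, stood at 7.56 ± 1.57 against 8.49 ± 2.34 FPKM (SD, n = 3 each). Nos3, the endothelial nitric oxide synthase gene, stood at 10.6 ± 2.0 against 9.30 ± 3.73 FPKM, and Ptgis, the prostacyclin synthase gene, at 491 ± 72 against 456 ± 79 FPKM.

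**Figure D5:**
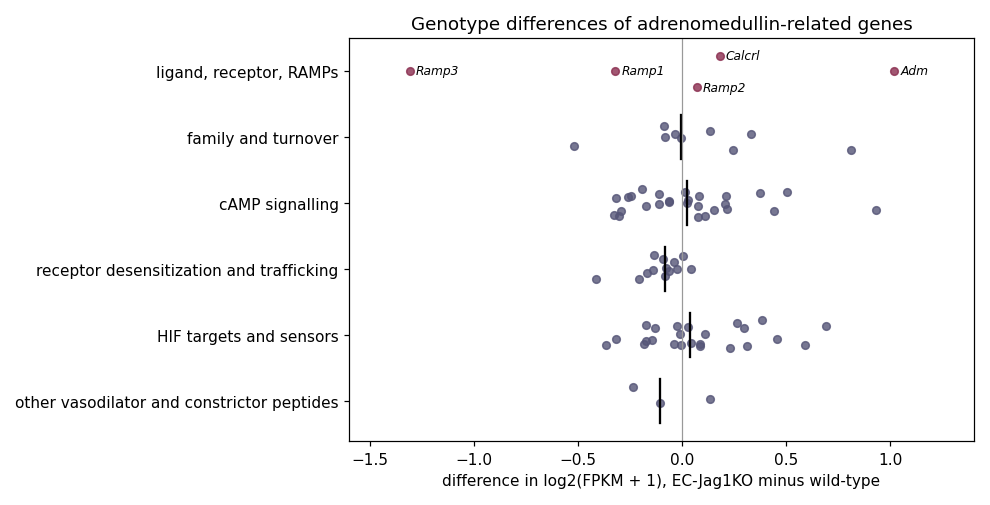
Difference in log2(FPKM + 1), EC-Jag1KO minus wild-type (horizontal axis), for the 5 genes in the top row and for tested genes of 5 related groups in the rows under it; each point is a gene and each black line a group's median. Adm (1.02) and Ramp3 (-1.31) lie outside the range of all 5 groups. The 5 genes in the top row were chosen with this contrast known, so nothing is read from their place.

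The genes whose pattern over the 6 libraries was most like that of each member were ranked by Pearson's r of log2(FPKM + 1), as a description, among 8049 protein-coding genes whose mean reached 5 FPKM (8050 for Ramp3, which lies under that level itself). For Adm they were Dnajb4, a heat shock co-chaperone, Fam76b, Procr, the endothelial protein C receptor, Gpnmb, a transmembrane glycoprotein gene, and Socs2, with r from 0.963 to 0.985. Procr was the one of these with a difference as large as that of Adm, at 16.8 ± 5.7 against 36.3 ± 2.6 FPKM (SD, n = 3 each). For Calcrl they were Sntg2, Msl3 and Aldh9a1 (0.984 to 0.997), for Ramp1 Lamtor2, Dxo and Cyth2 (0.993 to 0.998), for Ramp2 Sppl2b, Lamtor4 and Dnal4 (0.990 to 0.995), and for Ramp3 Rgma, Aktip and Trim8 (0.983 to 0.998). With 6 libraries and 8049 genes, values close to 1 arise readily, and the points share the libraries and their genotypes.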

How the data were processed

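RNA from whole mouse aorta was measured in 3 wild-type and 3 EC-Jag1KO libraries. The authors deposited 1 table of FPKM values with gene lengths and coordinates (per the file headers). The submitters' processing notes name the build mm10 and the tools STAR, HTSeq and edgeR; no source used here gives their roles, versions or strand setting. In the deposited FPKM table each value was a whole multiple of 1 read (211650 of 211650 values within 0.05 of a whole number), which gave reads per gene. Values were analysed as log2(FPKM + 1), so differences of low genes are understated. The 12165 genes whose mean reached 1 FPKM were fitted in limma 3.58.1 (R 4.3.3) on genotype alone, with an intensity trend and Benjamini-Hochberg adjustment; the fit was tested on simulated data. Intervals of members come from this fit, and those of ratios from the pooled SD. Replicate numbers were not used as pairs in the main fit (labels give no shared origin, and no same-numbered pair correlated above 0.1).

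Members, lists and tests were chosen with earlier results of these data known. Named were all members, every family and turnover gene except 1 that is not reported here, the 3 genes of smallest p and those of a mean of at least 50 FPKM in each other group, and the genes most like a member. Promoter sequences are RefSeq's (GRCm38.p6, matched by symbol for 4 of 5 members). Python 3.11.15 and matplotlib 3.10.9 made the plots. Alternatives covered pseudocount, filter, scaling, weights, covariates, block, voom and each library left out.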

Additional observations from a re-analysis of the deposited data

Results flagged for a closer look

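Ramp2 differed in opposite directions in the sexes. In the male libraries both EC-Jag1KO values (65.4 and 70.2 FPKM) lay above both wild-type values (51.7 and 53.2 FPKM), a log2 difference of 0.36. Between the female libraries, 1 of each genotype, the difference was -0.52 (65.2 FPKM against 45.2 FPKM in EC-Jag1KO). The genotype difference has no p-value here, and none is given for its change between the sexes, which was seen in these same values. In limma this genotype by sex interaction, chosen after seeing the data, was -0.88 for Ramp2, -0.99 for Ramp1 and -0.69 for Adm. Of 12165 genes tested, 22.6% had opposite directions in the sexes in every library, as Ramp2 did. With 1 female library per genotype, sex and that library cannot be told apart.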

How the results depend on the processing

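Across all genes the count past the adjusted threshold was 0 in limma, with 938 genes at an unadjusted p under 0.05. It was 1647 with array weights, where the weight of EC-Jag1KO replicate 1 was 14.7 and that of the others 0.259 to 1.61 and the weights did not fully converge, 1 with sex as a covariate (RP24-479J14.1) and 2 in the male libraries alone (Gm6472 and Gm10020). With each library left out in turn it was 0 to 4, the 4 (Gm14287, Eif3s6-ps2, Rpl3-ps1 and Gm12191) without EC-Jag1KO replicate 1; these genes were named after their values were seen. Of the 76 tested pathway genes 0 passed, and 21 with array weights; those at an unadjusted p under 0.05 numbered 9, 37 with array weights and 18 in the male libraries alone. The log2 difference of Adm kept its direction and stayed within 1 SD under all alternatives run, at 0.91 to 1.21 with each library left out and 0.90 to 1.25 otherwise. That of Ramp3 kept its direction but moved in size, to -2.85 and -4.08 with pseudocounts of 0.1 and 0.01, -1.68 with array weights and -3.75 with voom on recovered reads, and lay at -1.53 to -1.10 with each library left out. The differences of Calcrl, Ramp1 and Ramp2 were under 1 SD within groups, and their left-out ranges were -0.07 to 0.55, -0.50 to -0.04 and -0.05 to 0.26; Ramp2 was at 0.36 in the male libraries alone. The log2 ratio of Adm to Ramp3 differed by 3.92 and 5.15 with the smaller pseudocounts, 2.78 in the male libraries, 2.76 with array weights and 4.81 with voom. Left-out ranges were 0.40 to 1.13 for the ratio to Calcrl, 1.10 to 1.48 to Ramp1, 0.80 to 1.04 to Ramp2 and 2.14 to 2.59 to Ramp3. The pairs of members ordered alike in every library numbered 8 to 9 with each library left out. With the replicate block in limma 0 genes passed, 842 had an unadjusted p under 0.05, and the Adm difference was 1.02. Deviations of same-numbered libraries correlated at 0.055, 0.051 and -0.050. Same-numbered libraries also share a sex, and these values cannot show whether they share anything else. The cause of these changes was not tested. Filters and the variance trend do not enter a ratio, Ramp3 is absent above a mean of 5 FPKM, and levels per RefSeq coding length were not run, since no protein table was used here. Depth limits Ramp3, with 0 to 84 reads per library.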
